A study of Homo sapiens with 6 samples.

Results

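T98G is an established human glioblastoma cell line. The data described here are the pair of T98G libraries of an RNA sequencing series on the knock-down of HOTAIRM1, which makes 2 of its 6 libraries. Samples were chosen by their labels alone, and of the 59074 genes listed the 13678 with a mean level of at least 1 CPM (counts per 1 M reads) in the 2 libraries were compared. The siControl library came from T98G cells transfected with a non-target siPOOL and the siHOTAIRM1 library from T98G cells transfected with a siPOOL against HOTAIRM1. A siPOOL is a mixture of many small interfering RNAs against 1 transcript. Both were delivered with the same lipid reagent, and RNA was taken 72 h after transfection from wells seeded with 100000 cells. LN-229 and U251, the other glioblastoma cell lines of the series, were treated in the same way and serve here for comparison only. Neither an untransfected sample nor a second siPOOL was analysed here.

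HOTAIRM1 is a long non-coding RNA gene of the HOXA cluster, a row of homeobox genes that set position along the body axis in the embryo and are silent in most adult brain tissue. Long non-coding RNAs of this cluster have been described to act near their own locus on neighbouring HOXA genes and, in the cytoplasm, can bind microRNAs. Several pathways known from glioblastoma are described below. Fibrillar collagens and their partners build the extracellular matrix, and matrix metalloproteinases such as MMP1 and MMP3 degrade it. NF-kB and AP-1 are transcription factors that switch on cytokines, survival genes and proteases in mesenchymal tumour cells.

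Each condition is 1 library, so no test between conditions was possible and no p-value is given. A change is the difference of log2(CPM + 1), siHOTAIRM1 minus siControl, from which the median over the 13678 genes was subtracted. That median was -0.20 as deposited, against 0.01 in LN-229 and -0.05 in U251. Intervals in square brackets are 95% intervals of counting error, derived from the reads behind each value. They hold no spread between cultures. A gene is said to have risen or fallen where its change was at least 1.5-fold and its interval left out 0. Gene lists are set beside the share of all genes compared, called the background. The lists were chosen with earlier results of these data known, so an excess over the background is a description and was not tested. In bulk RNA, less RNA per cell and fewer cells that make it cannot be told apart.

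Before the values, the upstream bases of 7 genes are shown because the falls described below include several genes known as targets of NF-kB or AP-1, and because TXNIP is known to be switched on by glucose through a carbohydrate response element. Sequences are from RefSeq (GRCh38.p14), 5′ to 3′ on the strand of the gene, and end at the base before the transcription start. Capitals mark matches on either strand to the NF-kB motif, to the AP-1 motif TGANTCA or to the carbohydrate response element, a pair of CACGNG boxes 5 bases apart. The NF-kB motif was read as GG, 2 purines (A or G), 2 bases of any kind, 2 pyrimidines (C or T) and CC. CXCL8 (chr4:73740359-73740568, plus strand), the chemokine interleukin-8, held an AP-1 match and an NF-kB match near the start site. Its stretch ggaatttcct, further upstream, ends in CT, so it missed the NF-kB motif and is not marked. Which stretch NF-kB binds was not tested. CXCL3 (chr4:74038690-74038899, minus strand), another chemokine, held a pair of overlapping NF-kB matches. IL6 (chr7:22726990-22727199, plus strand), a cytokine, held 1 NF-kB match, and BIRC3 (chr11:102317274-102317483, plus strand), an inhibitor of apoptosis, held 2. EMP1 (chr12:13196516-13196725, plus strand), an epithelial membrane protein, held 2 AP-1 matches, and PLAUR (chr19:43670170-43670379, minus strand), the urokinase receptor, held 1. TXNIP (chr1:145996580-145996789, minus strand), which binds thioredoxin and restrains glucose uptake, held the carbohydrate response element.
CXCL8: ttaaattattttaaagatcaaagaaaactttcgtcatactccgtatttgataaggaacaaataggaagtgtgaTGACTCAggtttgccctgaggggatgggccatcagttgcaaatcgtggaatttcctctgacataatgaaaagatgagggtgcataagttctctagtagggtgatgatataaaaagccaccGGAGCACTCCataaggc
CXCL3: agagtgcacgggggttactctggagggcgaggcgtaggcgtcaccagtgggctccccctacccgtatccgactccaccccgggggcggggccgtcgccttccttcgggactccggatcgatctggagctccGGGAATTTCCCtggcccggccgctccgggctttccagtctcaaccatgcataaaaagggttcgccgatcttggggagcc
IL6: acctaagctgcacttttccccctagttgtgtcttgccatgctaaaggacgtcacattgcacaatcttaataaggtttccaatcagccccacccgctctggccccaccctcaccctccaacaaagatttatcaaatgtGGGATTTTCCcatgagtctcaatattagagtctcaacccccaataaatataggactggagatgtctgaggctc
BIRC3: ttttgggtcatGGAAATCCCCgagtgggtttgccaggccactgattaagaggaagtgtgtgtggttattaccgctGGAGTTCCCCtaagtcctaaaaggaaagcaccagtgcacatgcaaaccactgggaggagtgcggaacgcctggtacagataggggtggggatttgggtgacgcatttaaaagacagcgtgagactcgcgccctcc
EMP1: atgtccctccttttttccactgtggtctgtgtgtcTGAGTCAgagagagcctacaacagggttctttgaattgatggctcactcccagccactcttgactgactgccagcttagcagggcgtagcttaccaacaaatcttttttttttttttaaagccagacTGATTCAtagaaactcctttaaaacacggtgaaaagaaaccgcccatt
PLAUR: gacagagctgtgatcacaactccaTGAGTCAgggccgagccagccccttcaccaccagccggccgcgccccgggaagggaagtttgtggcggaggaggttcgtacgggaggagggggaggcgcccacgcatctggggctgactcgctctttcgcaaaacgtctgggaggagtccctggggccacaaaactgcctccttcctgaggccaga
TXNIP: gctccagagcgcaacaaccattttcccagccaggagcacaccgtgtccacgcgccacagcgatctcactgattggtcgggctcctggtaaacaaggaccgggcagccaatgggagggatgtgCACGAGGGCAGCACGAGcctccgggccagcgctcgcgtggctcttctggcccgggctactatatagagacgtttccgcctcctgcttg

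Shares below, like the sequences above, rest on the first promoter listed for each gene, and further promoters of a gene were not searched. In the 250 bases upstream of the start, the AP-1 motif occurred in 6.596% of these 27305 promoters. It occurred in 3.77% of the 9017 promoters of genes compared in T98G. The AP-1 motif was found in 14 of the 108 promoters of genes that fell (12.96%) and in 4 of the 114 promoters of genes that rose (3.51%). The NF-kB motif occurred in 11.9% of all promoters, in 14.01% of those of genes compared, in 23 of 108 of those that fell (21.3%) and in 17 of 114 of those that rose (14.9%). The carbohydrate response element was found in 16 of the 27305 promoters, 11 of them of genes compared in T98G, and TXNIP was the 1 gene that rose among them. ARRDC4, which rose as well, had a listed promoter without a match. These are matches of letters and not measured binding sites, and the promoters of COL3A1, MMP1, MMP3, MMP13, ADAMTS5, ADAMTS1 and SLPI were not in the table used. The promoters shown above all held a match, and those of SOD2, NT5E and CHI3L1, which fell, were listed but are not shown.

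The 2 libraries were of like depth. The scale on which the authors computed CPM was not given in the sources used here, and depth was inferred from the worth of 1 read in the low values. By this estimate the siControl library held 69.1 M reads and the siHOTAIRM1 library 72.7 M, so that 3 reads, taken as the detection limit, were 0.0434 and 0.0412 CPM. The values of the listed genes summed to 50.2% of the full CPM scale in siControl and 42.9% in siHOTAIRM1. MGMT, a DNA repair gene known to be silenced in LN-229 and U251 and expressed in T98G, had levels of 7.44 and 5.86 CPM in the T98G libraries and at most 0.0113 CPM in the other 4, which fits the labels. The neural stem cell factor SOX2 was at or under the detection limit in both T98G libraries, and the astrocyte filament gene GFAP was at 0.0434 and 0.0550 CPM, whereas the mesenchymal markers VIM (403 and 254 CPM) and CD44 (780 and 623 CPM) were abundant.

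HOTAIRM1 (ENSG00000233429.9, chr7:27095647-27100265 on hg38, plus strand) had a level of 3.49 CPM [3.07, 3.96] in siControl and 2.14 CPM [1.83, 2.51] in siHOTAIRM1. Its level in CPM therefore differed by -38.5%, with a counting interval from -49.7% to -24.8%. By RT-qPCR, a different assay, the study reported a larger reduction of HOTAIRM1 in T98G with siPOOLs. The centred change was -0.31 [-0.52, -0.10], short of 1.5-fold, so HOTAIRM1 was lower than its control beyond counting error and did not count as fallen by the rule used here. With the trend of changes with transcript length removed (described below) the change was -0.18 [-0.39, 0.03], and its interval then held 0. The same measure was -0.63 in LN-229, where levels were 1.99 and 0.952 CPM, and -0.44 in U251, where they were 1.27 and 0.622 CPM. T98G thus had the highest level of HOTAIRM1 in both conditions and the smallest centred change of the 3 cell lines. Whether these changes differ between cell lines was not tested.

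Of the other 16 genes listed for the HOXA cluster, 4 passed the level filter. HOXA3 rose from 0.782 to 1.43 CPM, with a change of 0.65 [0.41, 0.88], which was 0.45 and short of 1.5-fold without centring. Its antisense neighbour HOXA-AS2 had a change of 0.43 (1.43 and 1.84 CPM) and HOXA13, the most 5′ gene of the cluster, one of 0.27 (1.52 and 1.65 CPM). The library kit does not mark strand, so reads from the overlap of HOXA3 with HOXA-AS2 cannot be told apart. TGM2, the transglutaminase that crosslinks matrix proteins, was examined with HOTAIRM1 in the study. For T98G the study describes unaffected TGM2 mRNA but less TGM2 protein after the knock-down, and the values here are of RNA only. The level of TGM2 RNA was 8.31 CPM in siControl and 9.38 CPM in siHOTAIRM1, a change of 0.36 [0.21, 0.50] in T98G beside -0.48 in LN-229. Other genes named by the study also stayed within 1.5-fold in T98G, with changes of -0.34 for SNAI2, -0.18 for PGK1, -0.10 for MGMT, -0.09 for EGFR and 0.05 for MIR17HG, the host gene of the miR-17 cluster.

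Across the transcriptome, 192 genes rose at least 1.5-fold (1.4% of the 13678 compared) and 161 fell (1.18%). At least 2-fold rises were seen for 23 genes (0.168%) and falls for 17 (0.124%). Without subtraction of the median the split turned to 62 genes higher and 618 lower, so that 9.12% of the calls were rises in place of 54.4%. Each change is then 0.20 lower, and a rise of less than 0.79 loses its call. The spread of centred changes, as SD over genes, was 0.27 in T98G, between 0.20 in LN-229 and 0.41 in U251. In the plot of change against level, COL3A1, PI15, ADAMTS5 and CBLN2 stood out upward and MMP1, EMP1, MMP3 and CXCL8 downward.

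**Figure D1:**
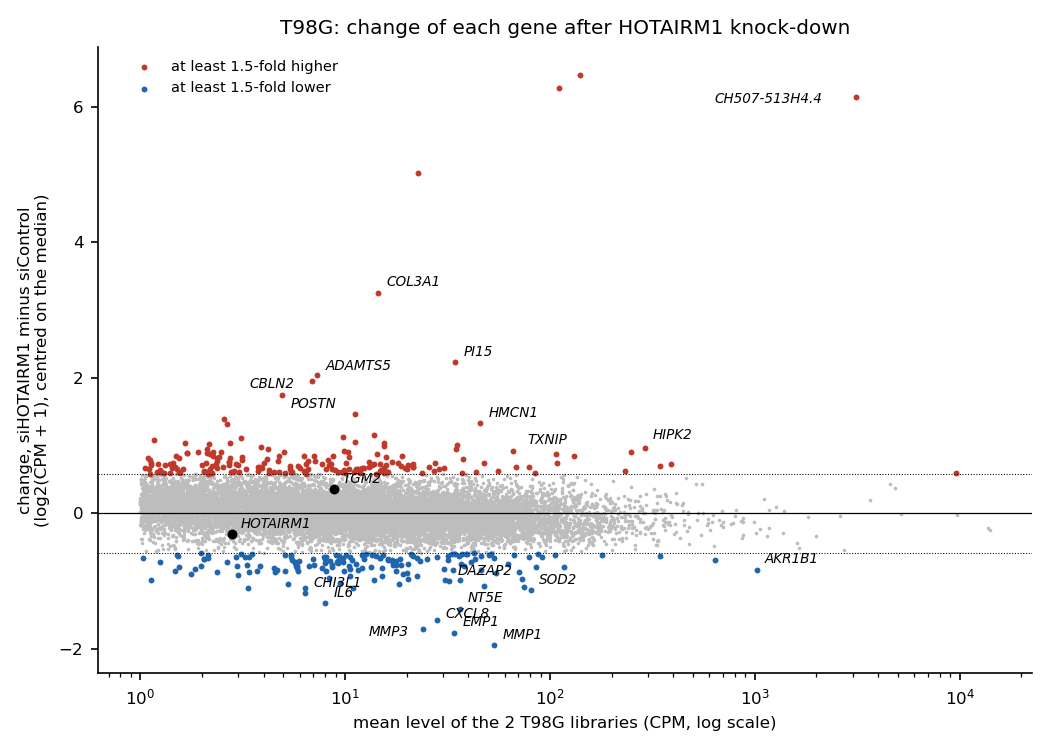
Change of each gene in T98G (vertical axis, centred log2(CPM + 1)) against its mean level in the 2 libraries (horizontal axis, CPM on a log scale). Red and blue points are genes at least 1.5-fold higher or lower beyond counting error, dotted lines mark 1.5-fold, and black points are HOTAIRM1 (-0.31) and TGM2 (0.36). COL3A1 at 3.26 and MMP1 at -1.94 lie at the ends of the named coding genes.

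The largest rise of a coding gene was that of COL3A1, the alpha chain of type III collagen. Its level was 2.32 CPM in siControl and 26.6 CPM in siHOTAIRM1, a change of 3.26 [3.09, 3.43]. In LN-229 COL3A1 was at 0.351 and 0.404 CPM, and in U251 at 0 and 0.0692 CPM, so only T98G expressed it above 1 CPM. All 6 fibrillar collagen genes past the filter had changes above 0, with a median of 0.53. Apart from COL3A1 they stayed within 1.5-fold, down to 0.19 for COL5A2, with changes of 0.58 for COL1A1 (1.48 and 2.21 CPM), 0.54 for COL5A1 (100 and 127 CPM) and 0.52 for COL1A2 (409 and 511 CPM). Type IV collagens, the network of basement membranes, gave the same picture. COL4A5 rose (0.75, 1.52 and 2.68 CPM), while COL4A1 and COL4A2 had changes of 0.50 and 0.41. Over the whole list of 33 collagen and collagen processing genes, 3 rose (COL3A1, COL4A5 and LOXL1, a lysyl oxidase that crosslinks collagen) and none fell, that is 9.09% against a background of 1.4% for rises, with a median change of 0.19 against 0 for all genes. Without centring COL3A1 was the 1 rise left, 1 gene (COL8A1) fell, and the median was -0.0080. The collagen crosslinker LOX and COL8A1 lay on the other side, at -0.36 and -0.40.

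Glycoproteins of the matrix moved in part with the collagens. POSTN (periostin), which links collagen to other matrix proteins and is known from glioma stroma, rose from 2.03 to 7.81 CPM, a change of 1.74 [1.55, 1.93]. EFEMP1 (0.91), the basement membrane proteoglycan HSPG2 (0.66), the proteoglycan VCAN (0.60, 72.7 and 96.3 CPM) and the laminin chain LAMA5 (0.59) rose too. IGFBP3, which binds insulin-like growth factors, fell from 82.9 to 42.5 CPM (-0.75), and LAMB3, a chain of the epithelial laminin of hemidesmosomes, fell from 45.7 to 21.7 CPM (-0.84). Of the 28 genes of this list 5 rose (17.9%, background 1.4%) and 2 fell (7.14%, background 1.18%), and the median change was 0.18. Without centring 2 rose, POSTN and EFEMP1, 4 fell and the median was -0.022, and with the length trend removed 2 rose and 2 fell. LAMA3, another laminin chain, had a change of -0.01. Among 14 integrins, the matrix receptors, ITGA8 rose from 49.5 to 82.5 CPM (0.93) and ITGB8 from 32.0 to 42.4 CPM (0.59), against the background of 1.4%, and none fell. ITGA6 (143 and 89.1 CPM) and ITGB3 (34.1 and 21.1 CPM) had changes of -0.47 each, 6 of the 14 lay below 0, and the median was 0.05. Without centring ITGA8 alone rose, 2 fell and the median was -0.15. ITGA8 was not detected above 0.034 CPM in LN-229 or U251.

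Several of the largest rises outside these lists were also of secreted or matrix genes. PI15, a secreted peptidase inhibitor, rose from 12.99 to 56.1 CPM (2.23 [2.13, 2.33]). HMCN1 (hemicentin 1), a large matrix protein, rose from 28.3 to 63.3 CPM (1.34). The secreted proteases ADAMTS5, ADAMTS1 and ADAMTS9, which cleave proteoglycans such as versican and aggrecan, all rose. ADAMTS5 went from 2.62 to 12.03 CPM (2.05), ADAMTS1 from 25.2 to 45.1 CPM (1.02) and ADAMTS9 from 11.1 to 20.02 CPM (0.996). CBLN2, a secreted organiser of synapses, rose from 2.64 to 11.2 CPM (1.95), and FGG, the gamma chain of fibrinogen, from 6.15 to 16.2 CPM (1.47). The remaining genes among the 15 largest rises at a level of at least 5 CPM were RGS2 (1.15), a regulator of G protein signalling, SCG2 (1.13), a secretory granule protein, ARRDC4 (1.06), AKAP6 (1.04), the kinase HIPK2 (0.97), FLRT2 (0.94) and the adhesion receptor LPHN2 (0.93).

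Opposite in direction were the collagenases and the plasminogen system. MMP1, the interstitial collagenase, had the largest fall of all genes at this level, from 87.6 to 19.1 CPM (-1.94 [-2.02, -1.86]). MMP3 (stromelysin 1), which activates MMP1, fell from 38.4 to 9.47 CPM (-1.71), and MMP13, a further collagenase of the same gene cluster on chromosome 11, from 27.5 to 12.5 CPM (-0.88). None of these proteases exceeded 0.5 CPM in the LN-229 or U251 libraries. PLAU, the urokinase that activates plasminogen, fell from 157 to 78.2 CPM (-0.79), and its receptor PLAUR from 14.8 to 6.24 CPM (-0.93). ADAM12 fell as well (-0.63). Other members of the protease list were near 0, among them MMP2 (0.02), MMP14 (-0.03) and the inhibitor TIMP1 (-0.06). In all, 2 of 26 genes of the list rose and 7 fell, beside backgrounds of 1.4% and 1.18%, and the median was -0.05.

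**Figure D2:**
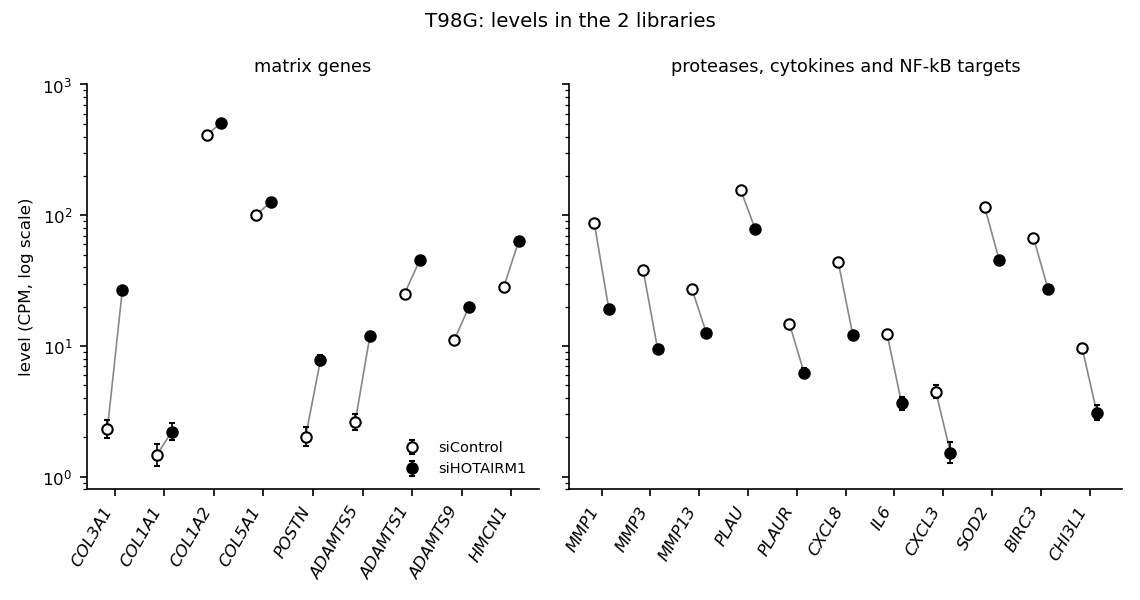
Levels (CPM, log scale) of matrix genes (left) and of proteases, cytokines and NF-kB targets (right) in the siControl (open) and siHOTAIRM1 (filled) library of T98G, with 95% counting intervals, which are mostly smaller than the points. All 9 matrix genes drawn are higher in siHOTAIRM1 and all 11 genes on the right are lower. The genes drawn were picked from those described here, so their directions are not a result.

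Inflammatory genes formed the second group of falls. CXCL8 was at 43.9 CPM in siControl and 12.1 CPM in siHOTAIRM1, a change of -1.58 [-1.68, -1.48]. IL6 fell from 12.4 to 3.64 CPM (-1.32) and CXCL3 from 4.47 to 1.53 CPM (-0.91). The remaining cytokines past the filter stayed within 1.5-fold, with changes of -0.51 for CCL2 (62.5 and 37.7 CPM), -0.39 for LIF and -0.12 for CSF1. All 6 cytokines past the filter thus had changes below 0, with a median of -0.71, while 12 of the 18 listed were under the filter, CXCL2 at 0 in both libraries among them. Of 16 other NF-kB targets and subunits, BIRC3 fell from 67.6 to 27.3 CPM (-1.08), SOD2, the mitochondrial superoxide dismutase, from 116 to 45.3 CPM (-1.13) and the pentraxin PTX3 from 46.1 to 25.4 CPM (-0.63). The standard feedback targets did not follow to the same extent, since NFKBIA was at -0.34, TNFAIP3 at -0.05 and ICAM1 at 0.08. The subunits REL (0.27), RELA (-0.02) and NFKB1 (-0.15) were within 1.5-fold. No gene of the NF-kB list rose and 6 of 22 fell (background 1.18%), with a median change of -0.25. In LN-229 the list's median was 0.00 and in U251 0.03. Both are over the members past the T98G filter. A member hardly expressed in another cell line has a change near 0 there, so these medians do not show that the list was unchanged.

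CHI3L1 and SLPI, which encode secreted proteins, fell by a similar amount. CHI3L1 (YKL-40), a marker of mesenchymal glioblastoma, went from 9.61 to 3.08 CPM (-1.18), and SLPI, an inhibitor of leukocyte proteases, from 107 to 42.97 CPM (-1.09). Neither was above 0.0383 CPM in LN-229 or U251. The AP-1 subunit FOSL1 fell from 21.2 to 11.0 CPM (-0.69) and the ERK phosphatase DUSP5 from 18.5 to 9.90 CPM (-0.63), while SPRY1, an inhibitor of receptor tyrosine kinase signalling, rose from 2.88 to 5.55 CPM (0.96). These were 2 falls (7.69%, background 1.18%) and 1 rise (3.85%, background 1.4%) among the 26 genes of the AP-1 and ERK list, whose median change was -0.04. EMP1 had the second largest fall among genes of at least 5 CPM, from 54.9 to 13.4 CPM (-1.76 [-1.85, -1.66]).

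Some of the T98G changes recurred in the other cell lines. Of the 192 genes that rose in T98G, 16 also rose in LN-229 (8.33% of the T98G list and 13.7% of the LN-229 list of 117) and 49 in U251 (25.5% and 6.29% of the 779 in U251). Of the 161 that fell, 26 also fell in LN-229 (16.1% of the T98G list and 24.3% of 107) and 49 in U251 (30.4% and 4.76% of 1030). Among all genes past the filter in both cell lines, 0.702% rose and 0.574% fell in LN-229, and 5.63% and 7.50% in U251. A gene can be shared only where it passed the filter in the other cell line too. Of the 192 rises, 133 passed it in LN-229 and 114 in U251, and of the 161 falls 117 and 123. The shares of the T98G list given above are of all its genes, so their denominators differ from these. Rises in all 3 cell lines were seen for 12 genes and falls for 20. The same siPOOLs were used in every cell line, and their part in the shared changes was not tested.

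TXNIP was among the 12 shared rises, going from 102 to 159 CPM in T98G (0.84), from 4.93 to 18.3 CPM in LN-229 (1.69) and from 4.84 to 34.2 CPM in U251 (2.64). T98G had by far the highest level in siControl and the smallest change. Its relative ARRDC4, an arrestin under the same glucose sensor, rose in T98G (7.66 and 14.7 CPM) and had changes of 0.41 in LN-229 and 0.37 in U251. The other 14 genes of the TXNIP and arrestin list neither rose nor fell, the thioredoxin gene TXN at -0.18 and the TXNIP activator partner MLX at 0.06 among them. HIPK2, a nuclear kinase of the stress response, rose from 214 to 365 CPM in T98G (0.97), by 1.08 in LN-229 and by 1.31 in U251. The choline transporter SLC44A1 changed by 0.74, 0.74 and 0.77 in T98G, LN-229 and U251, and BMF, a pro-apoptotic BCL2 family member, by 0.84, 0.97 and 0.78. SEMA6B, the transmembrane semaphorin, rose from 0.970 to 1.83 CPM in T98G (0.72), by 0.96 in LN-229 and by 1.87 in U251. Within the list of 22 semaphorins, plexins and neuropilins it was the 1 rise (0.52 and no longer called without centring), PLXNC1 (-0.68) and NRP2 (-0.67) fell, and the median change was 0.26.

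Shared falls included EMP1 (-0.73 in LN-229 and -0.63 in U251), NT5E, DAZAP2, LAMP1, SMS and MTHFD2. NT5E (CD73), the membrane enzyme that makes adenosine from AMP, fell from 55.1 to 17.4 CPM in T98G (-1.41), with changes of -0.62 in LN-229 and -1.42 in U251. DAZAP2 went from 45.4 to 19.1 CPM in T98G (-1.003) with changes of -1.04 and -1.51 in LN-229 and U251. The lysosomal membrane glycoprotein LAMP1 (-0.87, -1.07 and -0.65 in T98G, LN-229 and U251) and the spermine synthase SMS (-0.99, -0.76 and -0.87) fell in all 3 cell lines. In contrast, MMP1, MMP3, CHI3L1, SLPI and COL3A1 were under 1 CPM in both of the other cell lines, so that their changes could not be compared there. CXCL8 fell in U251 too (-2.03) and was at -0.06 in LN-229, where it was abundant (363 and 352 CPM). PI15, which rose in T98G, also rose in LN-229 (0.65) but was at 117 and 104 CPM in U251 (-0.11). HMCN1 was at 330 and 304 CPM in LN-229 (-0.13). Differences between the cell lines were not tested.

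**Figure D3:**
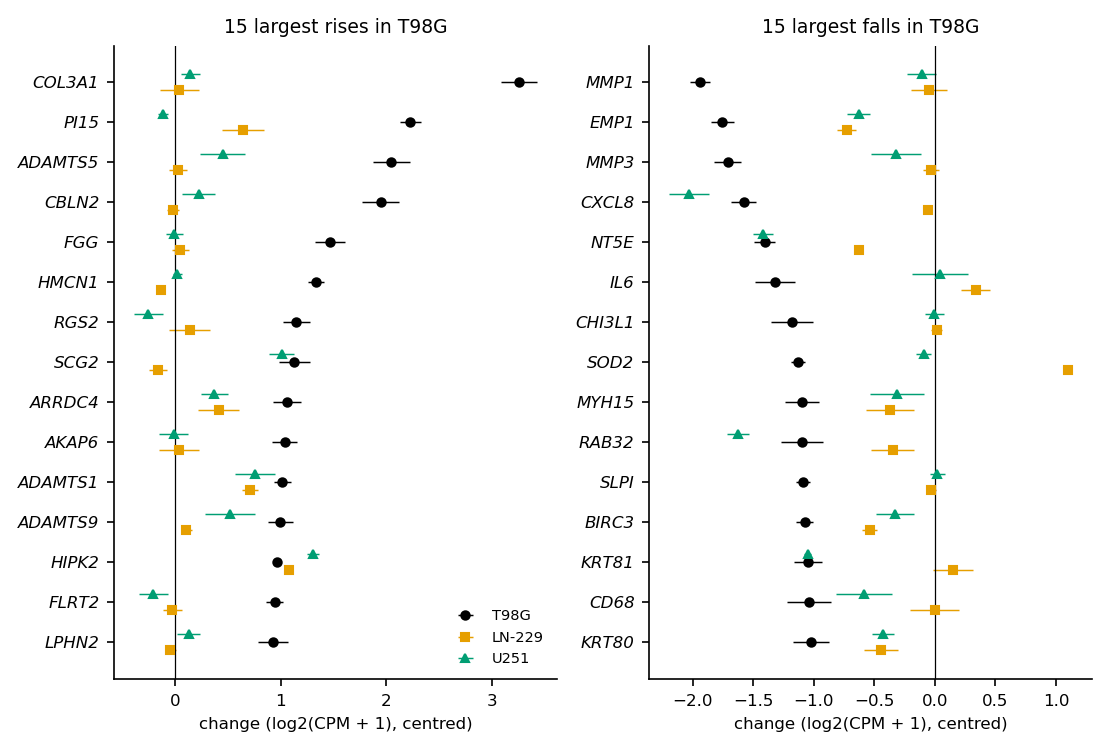
Change (horizontal axis, centred log2(CPM + 1)) of the 15 largest rises (left) and 15 largest falls (right) in T98G at a level of at least 5 CPM, with the same genes in LN-229 and U251. Bars are 95% counting intervals. Genes hardly expressed in LN-229 or U251 lie near 0 there, because 1 CPM is added to each level. Genes were picked for their change in T98G, so the size of the T98G changes beside the others is not a result. HIPK2 lies far above 0 in all 3 cell lines, and SOD2 lies at -1.13 in T98G and 1.10 in LN-229.

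The other genes among the 15 largest falls were MYH15 (-1.10), a myosin heavy chain, RAB32 (-1.10), a small GTPase of lysosome-related organelles, CD68 (-1.04), a lysosomal glycoprotein, and the keratins KRT81 (-1.05) and KRT80 (-1.02). RAB32 went from 9.47 to 3.26 CPM in T98G and had a change of -1.63 in U251. KRT81 (26.2 and 10.4 CPM in T98G) belongs to a family of hair keratins of near-identical sequence, so that reads may be shared among them. CD68 is known from macrophages, but of 14 immune and endothelial markers 1 passed the filter.

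Genes of amino acid supply lay mostly below 0. ATF4 is the factor that induces amino acid synthesis, uptake and tRNA charging when amino acids are short. Of 42 genes of this response, 39 had changes below 0, with a median of -0.35. By the 1.5-fold rule 3 fell (7.14%, background 1.18%) and none rose. Without centring 16 fell, and with the length trend removed 2. MTHFD2, a mitochondrial folate enzyme, fell from 50.8 to 25.4 CPM (-0.77), SLC1A4, a serine and alanine transporter, from 12.2 to 5.98 CPM (-0.72) and DDIT3 (CHOP), a transcription factor of the stress response, from 15.8 to 8.48 CPM (-0.62). A processed pseudogene of MTHFD2 fell with it (MTHFD2P7, -0.63), and the 2 share sequence. PHGDH (-0.57, 52.5 and 30.2 CPM), ASNS (-0.56, 19.6 and 11.2 CPM), TRIB3 (-0.48) and ATF4 itself (-0.40) stayed short of 1.5-fold. All 12 cytosolic tRNA synthetases of the list lay below 0, with a median of -0.35. The exceptions were PSAT1 (0.20, 17.0 CPM in both libraries), CBS and ATF5 (0.13 each). In LN-229 and U251 the median of this list was -0.01 and 0.01, again over the members past the T98G filter, whether or not the other cell line expressed them.

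Genes of oxidative defence and metal binding were also mostly lower. Of 39 NRF2 targets, NRF2 regulators and antioxidant enzymes 33 had changes below 0, and the median was -0.25. By the 1.5-fold rule 1 fell (SOD2), that is 2.56% beside the background of 1.18% (11 fell without centring). The ferritin light chain FTL went from 3412 to 2033 CPM (-0.55), AKR1B10 had a change of -0.52, and NQO1, a standard NRF2 target, one of -0.12 (950 and 762 CPM). AKR1B1, an aldose reductase outside this list, fell from 1374 to 672 CPM (-0.83 [-0.85, -0.81]). The processed pseudogenes AKR1B1P1 (-0.64), AKR1B1P2 (-0.77), AKR1B1P7 (-0.72) and AKR1B10P1 (-0.61) fell as well, and since they resemble their parent genes these are not separate observations. Metallothioneins, which bind zinc and copper, were lower in all 3 cases past the filter, with a fall of MT1E from 3.58 to 1.18 CPM (-0.87) and of MT1X from 7.19 to 2.94 CPM (-0.85) and a change of -0.39 for MT2A. Members of the MT1 family are near-identical, so the split of reads among them is uncertain. The zinc importer SLC39A14 fell too (-0.61), and 3 of the 14 genes of this list fell in all (21.4%, background 1.18%), or 6 without centring. SQSTM1, the autophagy receptor p62, fell from 832 to 450 CPM (-0.68), and with LAMP1 it made 2 falls among 47 lysosome and autophagy genes (4.26%, background 1.18%, and 6 falls without centring), whose median was -0.12.

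Housekeeping complexes shifted by small amounts in which no member passed 1.5-fold. Without centring 1 cytosolic and 2 mitochondrial ribosomal protein genes, 4 of the respiratory chain and 4 of the proteasome fell. The median change was -0.20 for 79 cytosolic ribosomal protein genes (77 below 0), -0.15 for 83 mitochondrial ribosomal protein genes (75 below 0), -0.21 for 80 genes of the respiratory chain (74 below 0) and -0.23 for 39 proteasome genes (38 below 0). The respiratory chain genes counted are nuclear only. All 37 genes of mitochondrial DNA were at 0 CPM in both T98G libraries, so subunits encoded there were not measured. Medians of the nuclear genes lay close together, at -0.19 for complex I, -0.25 for complex II and -0.20 for complex III. They were -0.27 for complex IV and -0.21 for ATP synthase. Cytochrome c (CYCS, 119 and 70.4 CPM), counted here with complex IV, had the lowest change, -0.55. Glycolysis lay at a median of -0.16 over 25 genes.

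These shifts ran alongside a trend with transcript length. Over the 12542 genes with a matched transcript, the Spearman correlation of change with length was 0.22 in T98G, -0.03 in LN-229 and 0.32 in U251, given as a description across genes that share both libraries. From the shortest to the longest of 5 equal groups of genes the median change went from -0.0859 to 0.0793. Genes that rose had a median transcript length of 5071 bases, those that fell 3321 bases and all genes 3198 bases. Ribosomal and respiratory chain transcripts are short, with median lengths of 785 and 784 bases. With the length trend removed the medians became -0.13 for cytosolic and -0.09 for mitochondrial ribosomal proteins, -0.14 for respiratory chain genes and -0.17 for the proteasome. The same step left -0.32 for the ATF4 list, -0.22 for the NF-kB list and 0.18 for the collagens.

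**Figure D4:**
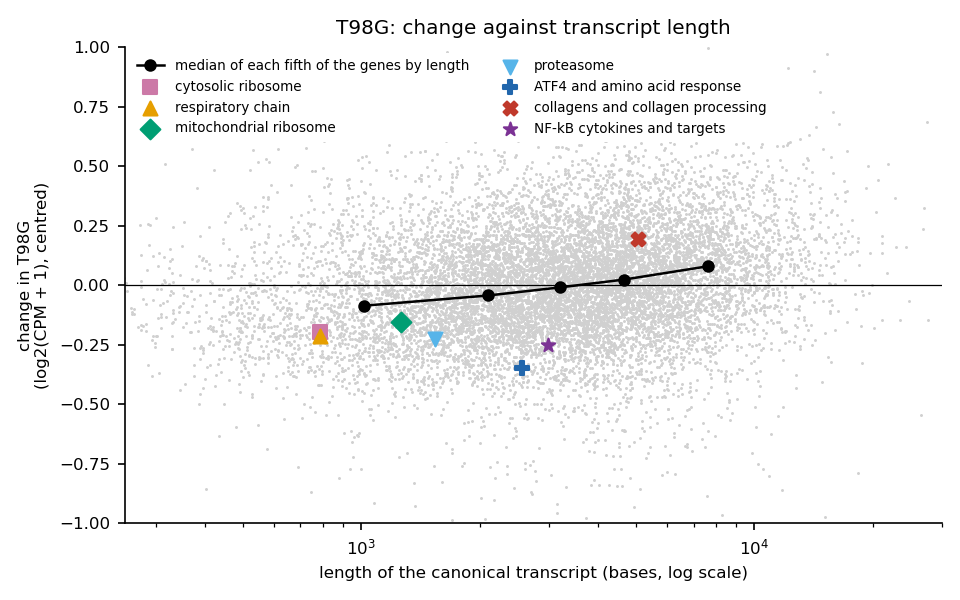
Change in T98G (vertical axis, centred log2(CPM + 1), drawn from -1 to 1) against transcript length (bases, log scale). Grey points are genes, the black line joins the medians of 5 equal groups by length (from -0.0859 to 0.0793), and coloured symbols are the medians of 7 gene lists. Ribosome and respiratory chain lie at short lengths and below the line, and the ATF4 and NF-kB lists lie furthest below it near the middle.

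In many other pathways no gene was called, beside the background of 1.4% for rises and 1.18% for falls. No gene rose or fell among 58 genes of DNA replication (median -0.08), 56 of mitosis (-0.12) and 27 p53 targets and regulators (-0.08). The same held for 43 genes of DNA repair (0.00), 65 splicing factors (0.00) and 40 genes of cholesterol and fatty acid synthesis (-0.11). It also held for 43 genes of the ER stress response (-0.09) and 33 heat shock chaperones, cochaperones and factors (-0.19). Neither 30 receptor tyrosine kinases and their ligands (-0.02) nor 15 genes of mesenchymal transition (-0.07) held a call. Of 49 translation factors (-0.18) and 17 genes of small RNA silencing (0.13 centred and -0.074 as deposited) none rose or fell either. Other lists held 1 to 4 calls. In the interferon response 1 of 52 genes rose (1.92%), IFI44L (10.8 and 17.8 CPM, 0.88), and the median was -0.02. Of 32 genes of the TGF-beta and BMP response, BMP4 was the 1 that rose (0.65, lost without centring), with a median of 0.09 that turned below 0 without centring, and of 25 hypoxia genes CA12, a carbonic anhydrase, fell (-0.71). Among 30 genes of the YAP and TEAD list, 22 of them targets, NT5E and IGFBP3 fell (6.67% of the list). The standard targets CTGF (-0.03) and CYR61 (-0.16) did not move by 1.5-fold. Of 33 actin and contractile genes 1 fell, the myosin kinase MYLK (-0.60). The 20 tubulins and filament genes had a median of -0.28, with falls of KRT80 and of TUBA4A (-0.59), which are 10% of the list. In the Notch and Wnt list of 24 genes, the receptor NOTCH3 (0.74) and the Wnt factor LEF1 (0.59) rose and the secreted Wnt inhibitors SFRP1 (-0.84) and DKK1 (-0.76) fell, which is 8.33% each way, and neither rise was left without centring. SFRP1 went from 15.9 to 7.18 CPM and DKK1 from 11.7 to 5.54 CPM. Among 15 stem cell, astrocyte and mesenchymal glioma markers, 2 fell (13.3%), CHI3L1 among them, and the median was -0.24. Both falls were among the 10 mesenchymal markers, whose median was -0.29. The 3 stem cell markers all lay above 0 (median 0.34), and the 2 astrocyte markers were at -0.25 and 0.45.

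**Figure D5:**
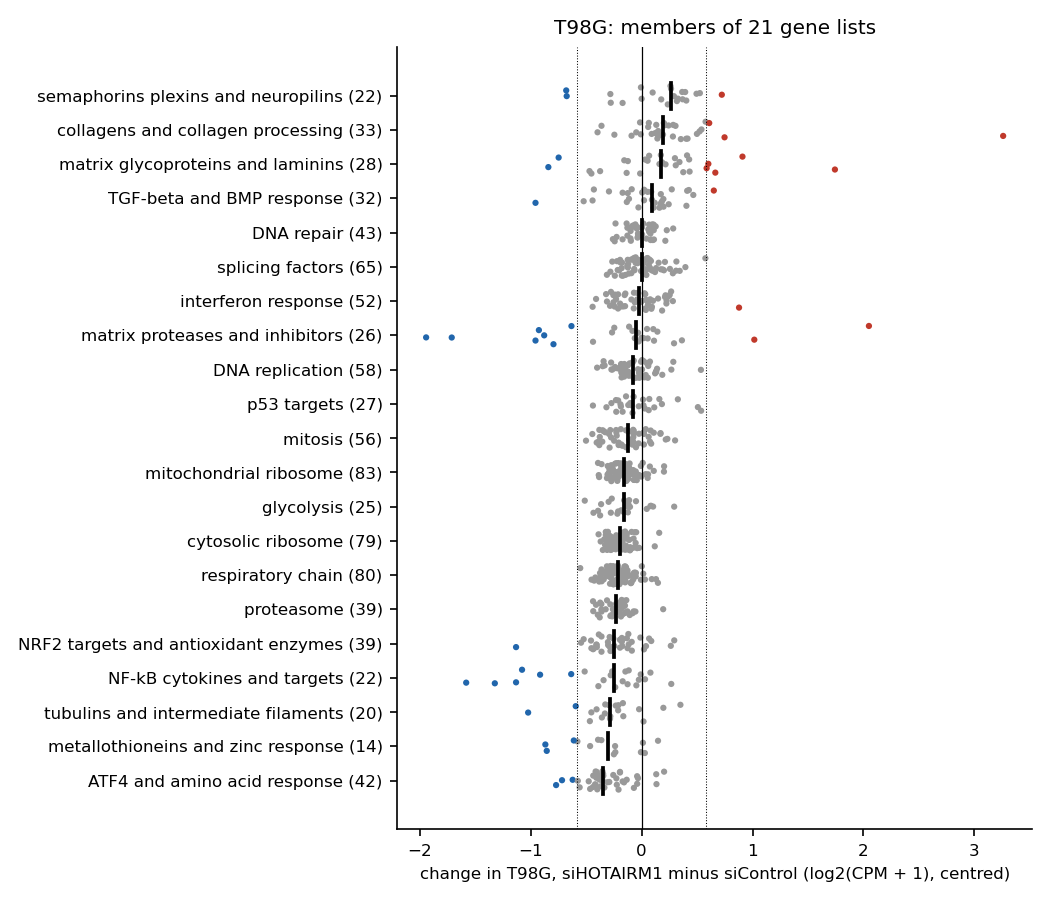
Change (horizontal axis, centred log2(CPM + 1)) of the members of 21 gene lists in T98G, ordered by their median (black bar), with the number of members past the level filter in brackets. Red and blue points lie beyond 1.5-fold (dotted lines). Semaphorins and collagens lie at the top with medians of 0.26 and 0.19 (0.06 and -0.0080 without centring), and the ATF4 list lies at the bottom with -0.35.

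Since collagens and periostin are also made by fibroblasts, markers of other cell types were examined. Of 10 fibroblast markers 5 passed the filter, none rose or fell, and their median change was 0.20 (-7.93e-05 as deposited). The summed level of the 10 was 4015 CPM in siControl and 4006 CPM in siHOTAIRM1, most of it COL6A3. PDGFRB (185 and 188 CPM), THY1 (152 and 131 CPM) and PDGFRA (38.4 and 48.0 CPM) were expressed as well. DCN (decorin) was the 1 marker of the 10 under the detection limit in both libraries. Of 14 markers of neurons and oligodendrocytes 5 passed the filter, all with changes below 0 and a median of -0.12, and their sum was 99.1 and 79.8 CPM. The 14 immune and endothelial markers summed to 4.33 and 3.75 CPM, with the microglial gene AIF1 at 0 in both libraries. The part of other cells in the matrix changes was not tested beyond these markers.

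The largest increases in the file belonged to 4 genes with clone-based names (CH507-513H4.3, CH507-513H4.4, CH507-513H4.5 and CH507-513H4.6), which had changes between 5.02 and 6.46. Their summed level was 104 CPM in siControl and 6679 CPM in siHOTAIRM1, that is 0.0207% and 1.56% of all listed CPM. In the other cell lines the sum was lower in siHOTAIRM1, with 391 and 172 CPM in LN-229 and 86.1 and 11.9 CPM in U251. The names were not matched to the annotation used here, so no function is given.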

How the data were processed

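The deposited values are CPM of 59074 genes in 6 libraries, 2 of them from T98G, and an offset of 0.0001 that the authors added was subtracted. Per the labels and the study's methods, the authors made TruSeq libraries from total RNA, used Partek Flow to trim the reads and to place them on hg38 by STAR 2.4.1d, and estimated gene levels with an expectation-maximization step, which splits reads between similar genes. Reads behind a value were recovered from the step between low values (about 80% were within 0.05 of a whole read, 79.7 and 80.4%), so a count test was not used, and with 1 library per condition no test of any kind was made. Wilson intervals of the reads (95%) cover counting error only.

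Genes whose mean in T98G reached 1 CPM were compared on log2(CPM + 1), centred on their median. Members and gene lists (41) were chosen with earlier results of these data known. The genes named were the 15 largest rises and falls at 5 CPM or more, those the study names, the members past 2-fold of each list or otherwise its 3 largest changes, and the extremes of each role. Further list members and pseudogenes were named after their values were seen, among them PLAU, MMP13, CXCL3, CCL2, the collagens of types I, IV and V, TXNIP, SLC44A1, DAZAP2 and AKR1B1. Transcript lengths and coordinates are from GENCODE release 44, to which 32766 genes were matched by symbol and 1775 by synonym. The changes were computed under 7 alternative settings, with scripts in Python 3.11.15, numpy 2.4.6 and pandas 2.3.3 that were tested on simulated data. Some genes counted in the lists are not reported here by name.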

Additional observations from a re-analysis of the deposited data

Results flagged for a closer look

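SOD2, the mitochondrial superoxide dismutase, moved in opposite directions in T98G and LN-229. It fell from 116 to 45.3 CPM in T98G (-1.13) and rose from 145 to 315 CPM in LN-229 (1.10), and the T98G change was lower by 2.23 on the log2 scale (T98G minus LN-229, -2.23). In U251 its levels were 67.3 and 60.9 CPM (-0.09). With 1 library per condition in each cell line, the difference was not tested.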

How the results depend on the processing

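The change of HOTAIRM1 in T98G stayed below 0 under each alternative that gave a value, from -0.51 without centring to -0.18 with the length trend removed, where its counting interval held 0. A level filter of 5 CPM left it out and gave no value. The numbers of genes at least 1.5-fold higher and lower, 192 and 161, became 62 and 618 without centring, 410 and 269 with a pseudocount of 0.1 CPM, and 110 and 321 without a level filter. They were 191 and 161 when centred on the trimmed mean, 209 and 154 when centred on protein-coding genes, 132 and 110 with the filter of 5 CPM, and 179 and 156 with the length trend removed. Without centring, medians turned below 0 for collagens (-0.0080), matrix glycoproteins and laminins (-0.022), small RNA silencing machinery (-0.074) and fibroblast markers (-7.93e-05), as well as for integrins (-0.15), the TXNIP and arrestin list (-0.14), the Notch and Wnt list (-0.14), the TGF-beta list (-0.11), DNA repair (-0.20) and splicing factors (-0.20). Of all single genes and lists, 300 moved by more than their counting error (lists by more than 0.1) without centring, 233 without a filter and 67 with the length trend removed. No paired analysis was possible because T98G has 1 library per condition and the labels carry no replicate numbers. Pairing siControl with siHOTAIRM1 over the 3 cell lines concerns their shared change and not that of T98G, and was not done here. Depth was no limit for genes over 5 CPM, whereas genes near 1 CPM rest on about 70 reads a library.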

Other observations

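C3, SAA2 and NNMT, picked after their values were seen for opposite directions in T98G and LN-229, belong to no list fixed here. C3, the central complement component, fell from 230 to 130 CPM in T98G (-0.61) and had a change of 0.95 in LN-229 (76.9 and 151 CPM). SAA2, a serum amyloid gene, fell from 7.42 to 3.54 CPM in T98G (-0.69) with a change of 1.22 in LN-229, and NNMT, which methylates nicotinamide, fell from 49.6 to 28.2 CPM in T98G (-0.59) with a change of 1.03 in LN-229. SAA2 has a near-identical neighbour, SAA1, so the split of reads between them is uncertain. KITLG, the ligand of the receptor KIT, rose from 16.7 to 23.3 CPM in T98G (0.66) and had a change of -0.75 in U251 (18.9 and 10.5 CPM). None of these differences between cell lines was tested.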
